A study of Saccharomyces cerevisiae with 22 samples.

Results

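The general stress genes of this report are 36 of the budding yeast genes that the related transcription factors Msn2 and Msn4 switch on. They were read here by gene symbol on two-colour arrays of newly made RNA. All 36 are on the array with 1 probe each (2 spots per probe), all 36 passed the detection filter, and together they make up 36 of the 6353 features tested. The set is given by gene names and its rule uses no measured value, although it was drawn up with earlier results of these data known.

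Msn2 and Msn4 are zinc-finger activators that bind the stress response element, a short sequence upstream of many genes. In cells growing on glucose, signalling through protein kinase A and TORC1 keeps both factors largely in the cytoplasm. When either signal drops, or when cells meet heat, osmotic shock, oxidants or loss of glucose, the factors enter the nucleus, often in short pulses, and raise genes for catalase, membrane protectants, trehalose and glycogen turnover, and side branches of sugar metabolism. The heat shock factor Hsf1 drives the chaperone genes by a different sequence, and a small group of genes, among them HSP26 and HSP104, takes input from both.

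The study followed transcription while Hsf1 was taken out of the nucleus. Both strains are MATalpha derivatives of BY4742 with MET15 and with his3-1, leu2, lys2 and ura3 markers, and both carry tor1-1, a deletion of fpr1 and RPL13A-FKBP12-NAT. Hsf1-aa also carries Hsf1-FRB-yEGFP, so that rapamycin ties Hsf1 to a ribosomal protein that leaves the nucleus. WT-aa has no FRB tag. Both strains thus received rapamycin, and tor1-1 with the loss of fpr1 is the standard means of making yeast growth resistant to it. Cells grew in synthetic complete medium with 2% glucose. In the slow course, rapamycin was given at 0.15 µM and cells were taken at 0, 15, 30, 60 and 90 min, with 2 arrays per strain and time (20 arrays, letters a and b). In the standard depletion, 7.5 µM rapamycin was given for 30 min, with 1 array per strain. The uracil analog 4-thiouracil (4tU, 5 mM) was added shortly before harvest, and the labelled RNA was purified. The values therefore follow RNA made in the last minutes before harvest rather than the standing RNA pool. No arrays of cells kept without rapamycin for the same times were analysed here, so time in culture and rapamycin cannot be told apart.

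Values are log2 ratios of sample over reference. In the slow course the reference pooled labelled RNA of WT-aa cells that had no rapamycin, so 0 stands for the untreated wild-type level of that gene. A level below is such a ratio, a change or a difference is one ratio minus another, and each fitted change is followed by its standard error (SE), with n = 2 arrays in each group. Fits were made with limma across all features, all adjusted p-values are its Benjamini-Hochberg values over all 6353 features of a comparison, and a gene passed the test at an adjusted p under 0.05. Letter a always had the sample in Cy3 and letter b in Cy5. The series states 2 independent cultures per group. Both letters bear one running number in the titles, whose meaning is not given, so the spread between arrays may be partly technical.

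The sample channel of the slow arrays had a median signal 19.1 to 38.1 times its background, and 6282 to 6351 features were detected. Of the 36 genes, 34 were detected on all 22 arrays. SIP18, GRE1, SDP1, PAI3 and MOH1 had a median signal under 100 units above background, where a change is compressed towards 0. The arrays gave strong signal for the 4 MATalpha markers (101 to 1252 times background) and weak signal for the 5 MATa markers (1.72 to 7.06 times), as the mating type in the labels calls for. Already at 0 min the HSF1 probe read lower in Hsf1-aa than in WT-aa, by -2.17 ± 0.23 (limma, adjusted p = 9.71e-04). Whether the tag changes what this probe reads was not tested. FPR1 is not on the array, and TOR1 and RPL13A did not pass in any strain difference. Replicate arrays of a group were correlated across the 36 genes between r = -0.304 (WT-aa, 0 min) and r = 0.869 (Hsf1-aa, 15 min). Across all features r lay between -0.208 (WT-aa, 0 min) and 0.736 (Hsf1-aa, 90 min).

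**Figure D1:**
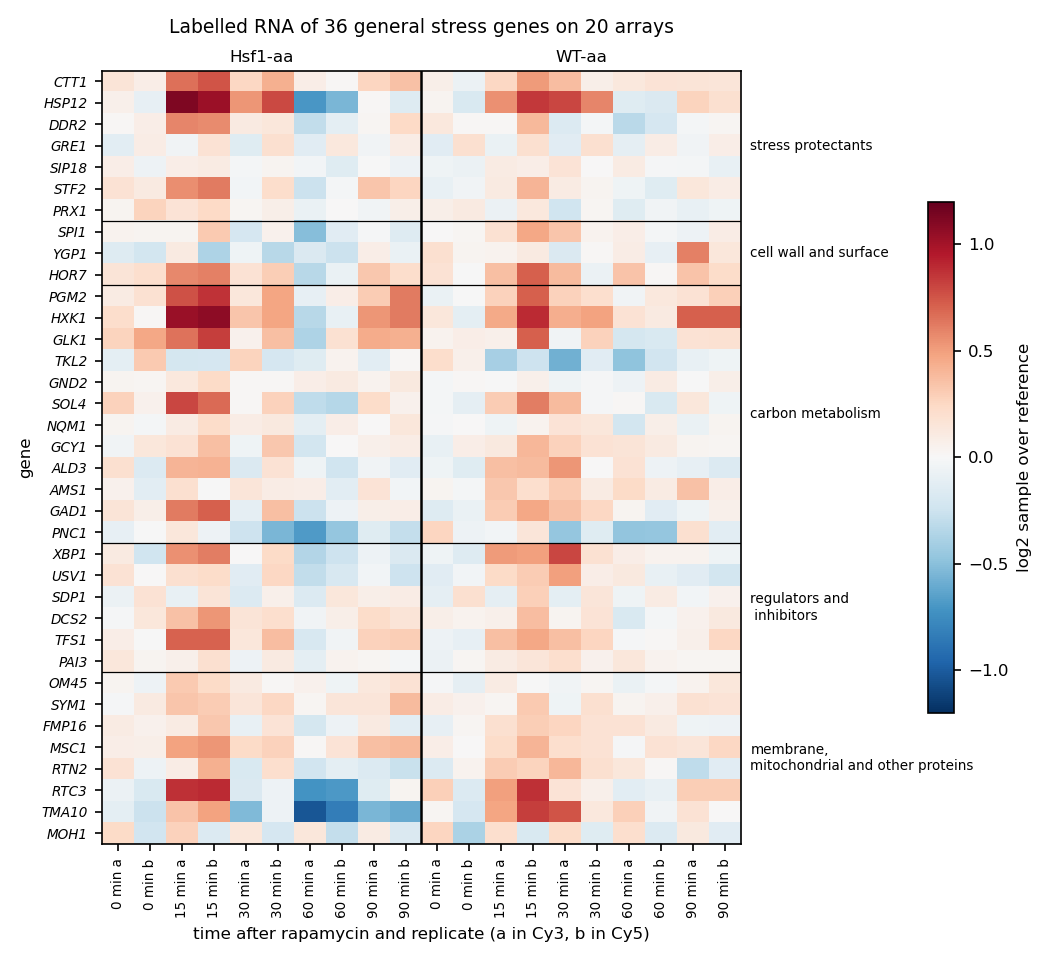
Levels (log2 sample over reference, colour) of the 36 general stress genes (rows, grouped by role) on each of the 20 slow arrays (columns, by strain, time and letter). The columns at 15 min are mostly red in both strains, and those of Hsf1-aa at 60 min are mostly blue, with HSP12, RTC3 and TMA10 the darkest.

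The first question was what the general stress genes did after rapamycin was added. Most of their values were higher at 15 min than at 0 min in both strains, though few passed in WT-aa, and most were lower again at 60 min. In Hsf1-aa, 10 of the 36 genes were higher at 15 than at 0 min and 0 were lower, where 0.645% of all features were higher. The 10 were HSP12, RTC3, HXK1, PGM2, TFS1, CTT1, GAD1, DDR2, MSC1 and DCS2. In WT-aa, 2 were higher (HSP12 and TFS1) and 0 lower, where 0.189% of all features were higher, and 23 of the 36 had an unadjusted p under 0.05, against 20 in Hsf1-aa. The median change of the 36 genes was 0.28 in Hsf1-aa, with 34 above 0, and 0.28 in WT-aa, with 32 above 0, where 48.8% and 51.4% of all features were above 0. The difference between the strains in this change was also tested: 0 of the 36 genes passed in limma, as did 0 of all features (0%), and 1 gene had an unadjusted p under 0.05. The 95% interval of that difference lay within 1.5-fold (0.585 on the log2 scale) for 27 of the 36 genes and reached past it for the other 9.

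These counts depended on single arrays and on how the arrays were centred. The count of 10 in Hsf1-aa was 5 and 0 without replicates a and b of 0 min, and 4 and 2 without replicates a and b of 15 min. The count of 2 in WT-aa was 1 and 0 without replicates a and b of its 0 min group, 4 and 0 without those of 15 min, and 1 without either replicate of 60 min. Leaving out any one of the 4 arrays of 30 min gave 4. A fit with array weights gave 19 calls in WT-aa, and the share of all features called in that fit is not given here. Within letters, the median change was 0.27 (a) and 0.33 (b) in Hsf1-aa and 0.18 (a) and 0.33 (b) in WT-aa. The loess normalisation puts every array's middle at 0. When arrays were centred on external control RNA instead, the median of all features shifted by -0.076 in Hsf1-aa and by -0.302 in WT-aa, 0 of the 36 genes passed in either strain, and the median of the 36 genes was 0.203 in Hsf1-aa and 0.000188 in WT-aa. Relative to the median of all features it was then 0.279 and 0.302, so the higher values of the general stress genes at 15 min are relative to the other genes of the same array.

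**Figure D2:**
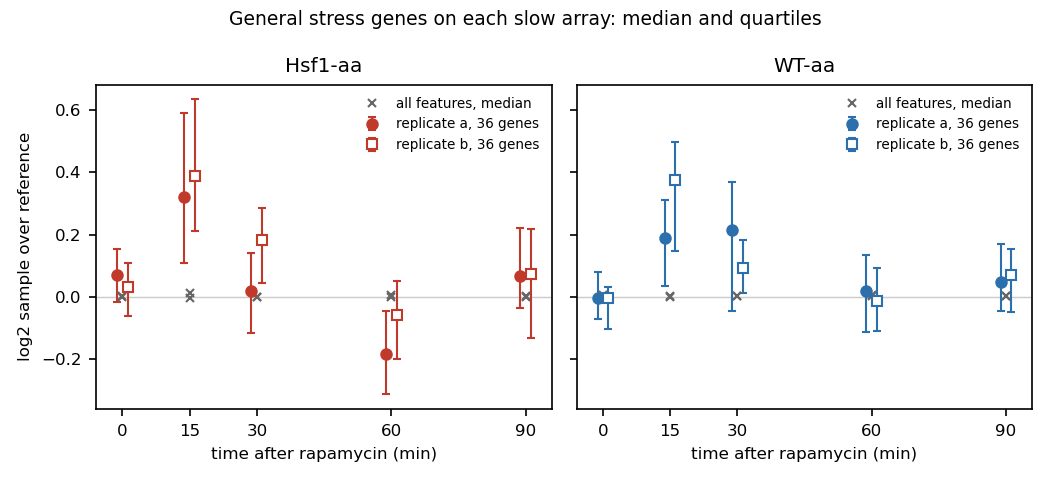
Median (symbol) and quartiles (bars) of the levels of the 36 general stress genes on each slow array against time after rapamycin, for Hsf1-aa and WT-aa, with the median of all features as crosses near 0. The medians at 15 min are 0.320 and 0.388 in Hsf1-aa and 0.189 and 0.374 in WT-aa, and those at 60 min are -0.185 and -0.0596 in Hsf1-aa and 0.0201 and -0.0144 in WT-aa.

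Among the stress protectants, HSP12 gave the strongest response. It encodes a small heat shock protein that settles on membranes and stabilises them, and it is a standard reporter of Msn2 and Msn4 activity. In Hsf1-aa its level was 0.06 and -0.10 at 0 min (letters a and b), 1.12 and 1.03 at 15 min, 0.53 and 0.79 at 30 min, -0.70 and -0.55 at 60 min and 0.015 and -0.16 at 90 min. In WT-aa it was 0.03 and -0.18 at 0 min, 0.55 and 0.85 at 15 min, 0.80 and 0.59 at 30 min, -0.15 and -0.18 at 60 min and 0.26 and 0.19 at 90 min. Both arrays of 15 and of 30 min thus lay above both arrays of 0 min in each strain. HSP12 rose at 15 min by 1.09 ± 0.12 in Hsf1-aa (2.13-fold, adjusted p = 0.00159) and by 0.78 ± 0.12 in WT-aa (adjusted p = 0.0204). At 60 min it was lower than at 0 min in Hsf1-aa (change -0.61 ± 0.12, adjusted p = 0.022).

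CTT1 encodes the cytosolic catalase, which breaks down hydrogen peroxide. Its level in Hsf1-aa was 0.15 and 0.08 at 0 min, 0.66 and 0.75 at 15 min, 0.25 and 0.43 at 30 min, 0.08 and 0.017 at 60 min and 0.26 and 0.35 at 90 min. In WT-aa the levels were 0.066 and -0.068 at 0 min, 0.25 and 0.52 at 15 min, 0.37 and 0.07 at 30 min, 0.12 and 0.16 at 60 min, and 0.15 on both arrays of 90 min. The arrays of 15 min were the highest of Hsf1-aa, and its change at 15 min was 0.59 ± 0.11 in Hsf1-aa (adjusted p = 0.0263) and 0.38 ± 0.11 in WT-aa (adjusted p = 0.186). DDR2, a small stress protein of unknown function, averaged 0.05, 0.575, 0.12, -0.21 and 0.13 at 0, 15, 30, 60 and 90 min in Hsf1-aa and 0.07, 0.20, -0.09, -0.26 and -0.001 in WT-aa. It rose by 0.52 ± 0.09 at 15 min in Hsf1-aa (adjusted p = 0.0189). In WT-aa its arrays at 15 min split, at 0.018 and 0.39, and the change was 0.13 ± 0.09 (adjusted p = 0.424). DDR2 had the smallest p of the 36 genes for the strain difference at 15 min, higher in Hsf1-aa by 0.37 ± 0.09, but the adjusted p was 0.279.

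STF2, a hydrophilic protein that protects cells during drying, averaged 0.14, 0.59, 0.09, -0.14 and 0.30 in Hsf1-aa over the 5 times and -0.066, 0.26, 0.06, -0.10 and 0.11 in WT-aa. Its level passed the F-test over all times in Hsf1-aa (adjusted p = 0.00716), while its change at 15 min had an adjusted p of 0.056. PRX1, a mitochondrial peroxiredoxin, averaged 0.15, 0.20, 0.05, -0.039 and 0.01 in Hsf1-aa, and 0.09, 0.03, -0.11, -0.09 and -0.07 in WT-aa, with no change that passed at 15 min. GRE1 and SIP18, paralogous hydrophilins known for their rise under osmotic stress, had changes at 15 min of 0.03 to 0.15 in the 2 strains. Both are among the 5 dim probes, so their small values carry little information.

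None of the 3 cell wall and surface genes passed at 15 min, with medians of 0.14 in Hsf1-aa and 0.31 in WT-aa. HOR7, a small plasma membrane protein and the brightest of the 36 probes, averaged 0.18, 0.59, 0.235, -0.21 and 0.27 in Hsf1-aa and 0.08, 0.54, 0.155, 0.18 and 0.28 in WT-aa. Its change at 15 min, 0.41 ± 0.16 and 0.46 ± 0.16, did not pass (adjusted p = 0.257 and 0.26). SPI1, a GPI-anchored wall protein, averaged 0.04, 0.17, -0.07, -0.325 and -0.08 in Hsf1-aa and 0.013, 0.33, 0.19, 0.03 and 0.014 in WT-aa. YGP1, a secreted glycoprotein that yeast makes as nutrients run low, averaged -0.185, -0.13, -0.20, -0.22 and 0.001 in Hsf1-aa and 0.11, 0.07, -0.08, -0.008 and 0.37 in WT-aa. Its level at 15 min was 0.11 and -0.37 in Hsf1-aa and 0.04 and 0.11 in WT-aa, and in WT-aa its highest level, 0.61, came on replicate a of 90 min, with 0.14 on replicate b. YGP1 was the gene with the largest negative strain difference at 0 min (-0.30 ± 0.14, unadjusted p = 0.0465, adjusted p = 0.998).

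Of the 12 carbon metabolism genes, 3 rose at 15 min in Hsf1-aa: HXK1 (hexokinase 1), PGM2 (phosphoglucomutase, which leads from glucose phosphate to trehalose and glycogen) and GAD1. None passed in WT-aa. HXK1 lay at 0.21 and 0.01 at 0 min in Hsf1-aa, 1.03 and 1.07 at 15 min, 0.33 and 0.48 at 30 min, -0.34 and -0.09 at 60 min and 0.53 and 0.62 at 90 min. In WT-aa it lay at 0.13 and -0.11, then 0.46 and 0.89, 0.44 and 0.48, 0.17 and 0.11, and 0.71 and 0.72 at the same times. It rose by 0.94 ± 0.13 at 15 min in Hsf1-aa (adjusted p = 0.00337), and in WT-aa the change was 0.66 ± 0.13 (adjusted p = 0.0563). The arrays of 90 min were as high as those of 15 min in WT-aa. PGM2 averaged 0.14, 0.82, 0.30, -0.01 and 0.46 in Hsf1-aa and -0.044, 0.50, 0.24, 0.04 and 0.23 in WT-aa, with a rise at 15 min of 0.68 ± 0.10 in Hsf1-aa (adjusted p = 0.00741) and a change of 0.54 ± 0.10 in WT-aa (adjusted p = 0.0563). GLK1 (glucokinase) averaged 0.36, 0.74, 0.21, -0.10 and 0.43 in Hsf1-aa and 0.06, 0.39, 0.12, -0.20 and 0.18 in WT-aa, and its arrays of WT-aa at 15 min lay far apart, at 0.06 and 0.72.

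The pentose phosphate genes are minor stress-linked isoforms, each beside a major enzyme for the same step. SOL4 (6-phosphogluconolactonase) averaged 0.17, 0.74, 0.15, -0.32 and 0.14 in Hsf1-aa and -0.07, 0.46, 0.18, -0.09 and 0.04 in WT-aa, and it passed the F-test over time in Hsf1-aa (adjusted p = 0.00524). GND2 (6-phosphogluconate dehydrogenase) and NQM1 (transaldolase) stayed between -0.07 and 0.175 in all 10 group means. TKL2 (transketolase) averaged 0.10, -0.21, 0.03, -0.055 and -0.056 in Hsf1-aa and 0.13, -0.32, -0.36, -0.36 and -0.07 in WT-aa. Its level in WT-aa was 0.21 and 0.06 at 0 min and -0.39 and -0.25 at 15 min, a change of -0.45 ± 0.17 that did not pass (adjusted p = 0.267), and in Hsf1-aa the change was -0.30 ± 0.17 (adjusted p = 0.451). TKL2 was the 1 gene of the 36 with a negative change of over 0.1 at 15 min in either strain.

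Of the other metabolic enzymes, GAD1 (glutamate decarboxylase) averaged 0.11, 0.67, 0.13, -0.16 and 0.07 in Hsf1-aa and -0.12, 0.38, 0.30, -0.05 and 0.01 in WT-aa. It rose by 0.56 ± 0.12 at 15 min in Hsf1-aa (adjusted p = 0.0437), a call that held under 11 of 28 alternatives. ALD3 (a stress-induced aldehyde dehydrogenase) changed at 15 min by 0.40 ± 0.15 and 0.47 ± 0.15 in the 2 strains and did not pass in either. Its group means were 0.01, 0.41, 0.00, -0.15 and -0.09 in Hsf1-aa and -0.10, 0.37, 0.26, 0.06 and -0.13 in WT-aa. GCY1 (glycerol dehydrogenase) averaged 0.05, 0.27, 0.14, -0.105 and 0.08 in Hsf1-aa and -0.006, 0.255, 0.225, 0.13 and 0.03 in WT-aa. AMS1, the vacuolar alpha-mannosidase, averaged -0.04, 0.09, 0.12, -0.02 and 0.06 in Hsf1-aa and 0.005, 0.26, 0.205, 0.16 and 0.21 in WT-aa. PNC1, a nicotinamidase that feeds NAD recycling, averaged -0.05, 0.03, -0.39, -0.57 and -0.21 in Hsf1-aa and 0.10, 0.05, -0.305, -0.47 and 0.035 in WT-aa. Its levels at 60 min were -0.68 and -0.46 in Hsf1-aa and -0.48 and -0.47 in WT-aa, against -0.10, -0.01, 0.26 and -0.06 on the 4 arrays of 0 min.

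Among the regulators and inhibitors, TFS1 was called in both strains. It encodes an inhibitor of carboxypeptidase Y that also binds the Ras regulator Ira2. Its level in Hsf1-aa was 0.08 and -0.01 at 0 min, 0.71 on both arrays of 15 min, 0.14 and 0.37 at 30 min, -0.19 and -0.05 at 60 min and 0.28 and 0.29 at 90 min. In WT-aa the levels were -0.07 and -0.10 at 0 min, 0.36 and 0.46 at 15 min, 0.36 and 0.25 at 30 min, -0.01 and 0.01 at 60 min and 0.07 and 0.25 at 90 min. The rise at 15 min was 0.67 ± 0.08 in Hsf1-aa (adjusted p = 0.00211) and 0.49 ± 0.08 in WT-aa (adjusted p = 0.025). External control centring reduced the value in WT-aa to 0.172, which no longer passed.

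XBP1, a repressor that helps shut down the cell cycle under stress, averaged -0.067, 0.58, 0.11, -0.30 and -0.115 in Hsf1-aa and -0.10, 0.50, 0.49, 0.06 and -0.005 in WT-aa. Its changes at 15 min, 0.65 ± 0.15 and 0.61 ± 0.15, had adjusted p-values of 0.0644 and 0.148. DCS2, a stress-induced relative of the cap-scavenging enzyme Dcs1, averaged 0.06, 0.44, 0.18, 0.016 and 0.19 in Hsf1-aa and rose by 0.38 ± 0.08 at 15 min (adjusted p = 0.0411), a call that held under 13 of 28 alternatives. In WT-aa its means were 0.055, 0.21, 0.10, -0.11 and 0.09. USV1, a zinc-finger factor for growth on non-fermentable carbon, averaged 0.09, 0.20, 0.06, -0.24 and -0.14 in Hsf1-aa and -0.08, 0.27, 0.29, 0.01 and -0.18 in WT-aa. SDP1, a phosphatase of the cell wall MAP kinase Slt2, and PAI3, an inhibitor of the vacuolar protease Pep4, are dim and had group means between -0.05 and 0.13.

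In the last group, of membrane, mitochondrial and other proteins, RTC3 and TMA10 changed the most. RTC3 is a small protein linked to RNA metabolism. Its level in Hsf1-aa was -0.07 and -0.18 at 0 min, 0.87 and 0.89 at 15 min, -0.18 and -0.06 at 30 min, -0.72 and -0.69 at 60 min and -0.15 and 0.03 at 90 min. In WT-aa it was 0.28 and -0.16, then 0.49 and 0.87, 0.17 and 0.06, -0.12 and -0.09, and 0.29 on both arrays of 90 min. RTC3 rose at 15 min by 1.01 ± 0.14 in Hsf1-aa (adjusted p = 0.00324), and in WT-aa the change was 0.62 ± 0.14 (adjusted p = 0.109). MSC1, of unknown function, averaged 0.07, 0.50, 0.25, 0.09 and 0.38 in Hsf1-aa and 0.04, 0.32, 0.19, 0.08 and 0.20 in WT-aa, and rose by 0.43 ± 0.07 at 15 min in Hsf1-aa (adjusted p = 0.0121).

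OM45, a mitochondrial outer membrane protein, averaged -0.016, 0.27, 0.06, 0.00 and 0.15 in Hsf1-aa and -0.06, 0.05, -0.012, -0.05 and 0.09 in WT-aa. SYM1, of the inner membrane, averaged 0.32 at 15 min in Hsf1-aa and 0.17 in WT-aa, with its other means between 0.04 and 0.26, and neither gene passed at 15 min. FMP16, a mitochondrial protein of unknown function, had means between -0.14 and 0.24. RTN2, a reticulon that shapes the endoplasmic reticulum, averaged 0.06, 0.26, 0.01, -0.17 and -0.22 in Hsf1-aa and -0.06, 0.28, 0.30, 0.07 and -0.22 in WT-aa, with a change from 0 to 90 min of -0.28 ± 0.14 and -0.16 ± 0.14 (adjusted p = 0.303 and 0.884). MOH1, of unknown function, had the second lowest signal and group means between -0.075 and 0.055. Its level was above 0 on letter a and below 0 on letter b in every slow group, as in Hsf1-aa at 0 min (0.234 and -0.227).

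**Figure D3:**
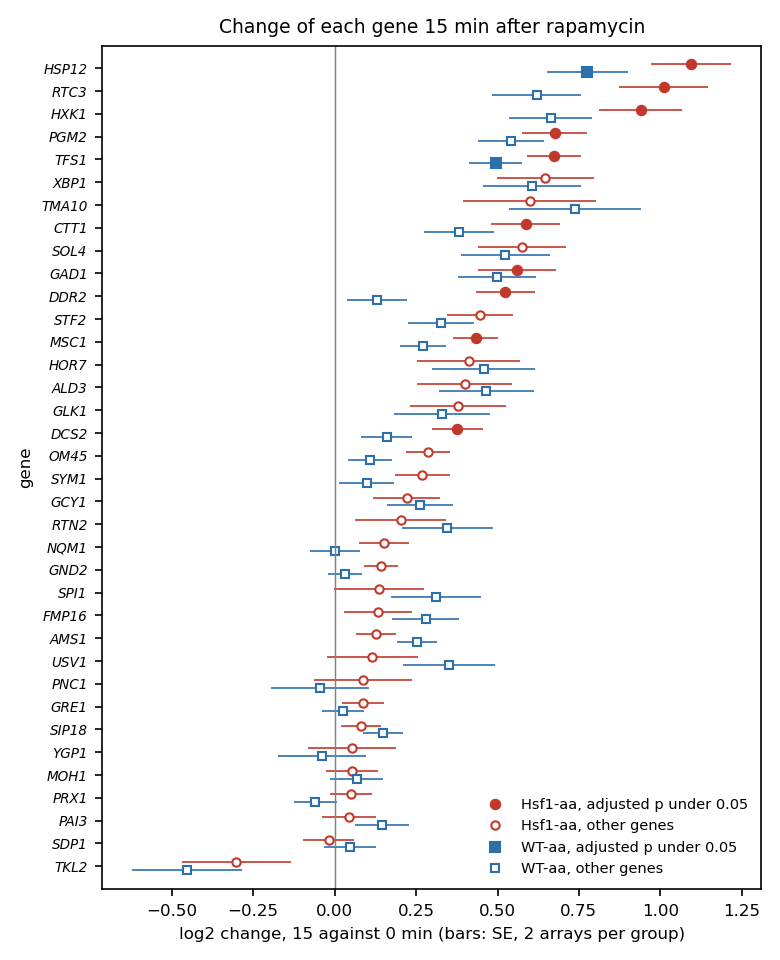
Change from 0 to 15 min (log2, x axis) of each of the 36 genes in Hsf1-aa (circles) and WT-aa (squares), sorted by the change in Hsf1-aa. Bars are the SE of the fit and filled symbols passed at an adjusted p under 0.05: 10 genes in Hsf1-aa, led by HSP12 at 1.09, and HSP12 and TFS1 in WT-aa, while TKL2 is the most negative in both.

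The highest group mean came at 15 min for 32 of the 36 genes in Hsf1-aa, against 28.4% of all features, and for 23 in WT-aa, against 19.3%. At 30 min 18 of the 36 genes in Hsf1-aa and 28 in WT-aa had values above their start, and 6 and 17 had an unadjusted p under 0.05. HSP12 was the 1 gene that passed, higher by 0.68 ± 0.12 in Hsf1-aa (adjusted p = 0.0211; higher calls made up 0.157% of all features) and by 0.77 ± 0.12 in WT-aa (adjusted p = 0.0228; 0.173%). The medians of the 36 changes at 30 min were 0.001 and 0.148. Leaving out either 0 min array or replicate b of 30 min ended the call in Hsf1-aa. In WT-aa 3 genes passed without either 30 min array of Hsf1-aa. Of its own 30 min arrays, without replicate b 13 of the 36 genes passed, and without replicate a none did, nor without either 0 min array.

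At 60 min the median change from 0 min was -0.16 in Hsf1-aa, with 30 of 36 genes below 0, and 0.03 in WT-aa, with 15 below 0. HSP12 in Hsf1-aa was the 1 call (lower calls made up 1.57% of all features), and 0 genes passed in WT-aa, where 0.394% of all features passed in either direction and 5 of the 36 genes had an unadjusted p under 0.05. The count of 1 in Hsf1-aa was 0 without either of its 0 min arrays or its replicate a of 60 min, 4 without either of its 30 min arrays, and 2 without any one array of WT-aa at 0, 15 or 30 min. Since the changes from 0 min all share the 0 min arrays of their strain, 60 min was also set against 15 min, a comparison chosen after the values at 15 min had been seen. That comparison shares the 15 min arrays with the rise from 0 to 15 min, so an error on those arrays would enter both. In Hsf1-aa 22 of the 36 genes were lower at 60 than at 15 min and 0 were higher, where 5.32% of all features were lower, and the median was -0.44 with 35 genes below 0. The falls were -1.70 ± 0.12 for HSP12 (adjusted p = 3.5e-06), -1.59 ± 0.14 for RTC3 (adjusted p = 1.57e-05), -1.35 ± 0.20 for TMA10 (adjusted p = 0.00153), -1.26 ± 0.13 for HXK1 (adjusted p = 6.67e-05) and -1.06 ± 0.14 for SOL4 (adjusted p = 4.77e-04). XBP1, GLK1, TFS1, GAD1, PGM2, HOR7, DDR2, STF2, CTT1, PNC1, ALD3, SPI1, DCS2, MSC1, GCY1, OM45 and PRX1 fell by 0.88 to 0.24. Every role was represented: 5 of 7 protectants, 8 of 12 carbon metabolism genes and 3 of 6 regulators and inhibitors passed, as did 2 of 3 surface genes and 4 of 8 of the last group.

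In WT-aa 4 of the 36 genes were lower at 60 than at 15 min, where 0.362% of all features were lower: HSP12 by -0.86 ± 0.12 (adjusted p = 0.0158), RTC3 by -0.79 ± 0.14, DDR2 by -0.46 ± 0.09 and TFS1 by -0.41 ± 0.08. Again 35 genes were below 0, with a median of -0.25, and 17 had an unadjusted p under 0.05. Both arrays of 60 min lay below both arrays of 15 min for 30 genes in Hsf1-aa, against 21.3% of all features, and for 23 genes in WT-aa, against 14.6%. With external control centring the calls numbered 5 in Hsf1-aa (HSP12, RTC3, TMA10, HXK1 and SOL4) and 0 in WT-aa. Without replicate b of 15 min the count was 13 in Hsf1-aa and 0 in WT-aa. It was 11 in Hsf1-aa without its replicate a of 60 min, and 0 in WT-aa without either 60 min array, or 2 without any one array of Hsf1-aa at 0, 15, 60 or 90 min or of WT-aa at 90 min. The difference between the strains in this fall was -0.84 ± 0.18 for HSP12 (unadjusted p = 4.09e-04, adjusted p = 0.0837), -0.80 ± 0.19 for RTC3 (adjusted p = 0.204) and -0.81 ± 0.29 for TMA10 (adjusted p = 0.955). No general stress gene passed there, against 0.346% of all features. The median of this difference was -0.21, 2 of the 36 genes were above 0, where 50.2% of all features were, and 11 had an unadjusted p under 0.05. Without replicate b of WT-aa at 15 min 2 passed, and without either array of Hsf1-aa at 30 min or of WT-aa at 0 min 1 did.

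At 90 min 20 of the 36 genes in Hsf1-aa and 25 in WT-aa had values above their start, 6 and 8 had an unadjusted p under 0.05, and 1 gene in each strain passed. In Hsf1-aa this was MSC1, higher by 0.31 ± 0.07 (adjusted p = 0.035; higher calls made up 0.756% of all features), and in WT-aa HXK1, by 0.71 ± 0.13 (1.63-fold, adjusted p = 0.0157; 0.488%). HXK1 was also the largest positive change in Hsf1-aa, at 0.46 ± 0.13, but did not pass (adjusted p = 0.0835), and PGM2 was in the top 3 of both strains, at 0.32 ± 0.10 and 0.27 ± 0.10 (adjusted p = 0.131 and 0.475). HSP12 stood at 0.30 ± 0.12 in WT-aa (adjusted p = 0.56). The lowest 3 were TMA10 (-0.39 ± 0.20), RTN2 and USV1 (-0.23 ± 0.14) in Hsf1-aa, and TKL2 (-0.21 ± 0.17), RTN2 and PRX1 (-0.16 ± 0.07) in WT-aa, and none of these passed. The medians were 0.04 and 0.07. HXK1 lost its call without replicate b of 0 min or either array of 90 min of WT-aa, and MSC1 without either array of Hsf1-aa at 0, 15 or 90 min or of WT-aa at 90 min. Without either array of WT-aa at 15 min 2 genes passed in Hsf1-aa.

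Over the whole slow course, 15 of the 36 genes passed the F-test of any later time against 0 min in Hsf1-aa, where 4.69% of all features passed. They were HSP12, RTC3, TFS1, HXK1, PGM2, DDR2, SOL4, STF2, MSC1, GAD1, TMA10, CTT1, XBP1, DCS2 and GLK1. In WT-aa 3 passed (HSP12, TFS1 and HXK1), where 1.34% of all features passed, and 24 had an unadjusted p under 0.05, against 25 in Hsf1-aa. The count in Hsf1-aa was 9 and 8 without replicates a and b of 15 min. That in WT-aa was 16 without its replicate b of 30 min, 12 without either 30 min array of Hsf1-aa and 1 without either of its own 60 min arrays. The 4 arrays of 30 min had the lowest array weights (0.449 and 0.442 for the 2 strains), and a fit without them, chosen after this was seen, gave 24 genes in Hsf1-aa and 17 in WT-aa.

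**Figure D4:**
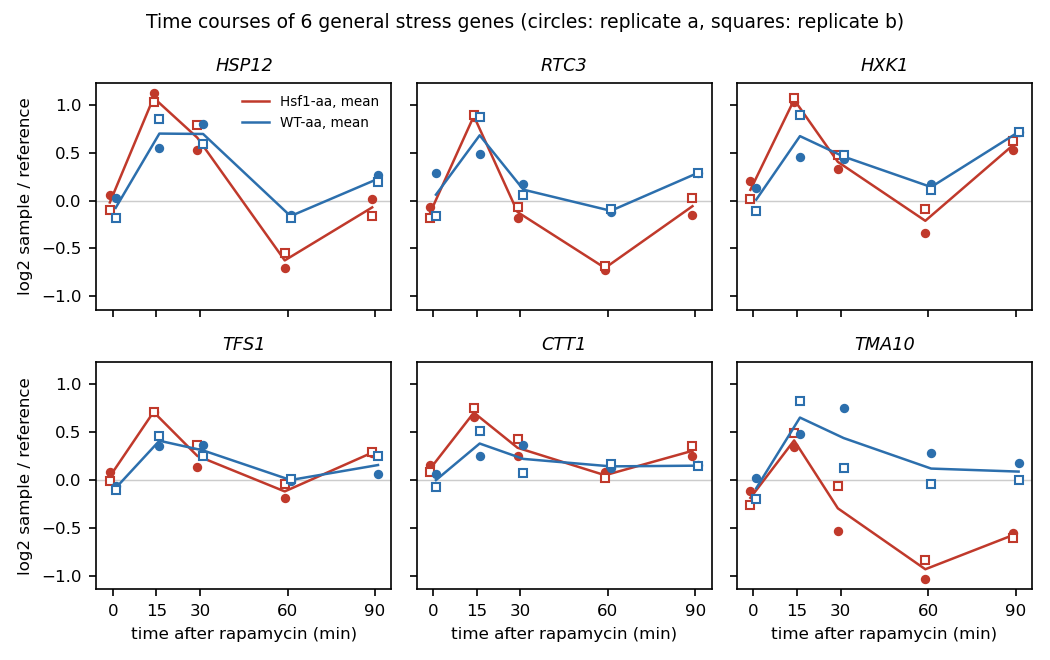
Level (log2 sample over reference) of HSP12, RTC3, HXK1, TFS1, CTT1 and TMA10 against time after rapamycin in Hsf1-aa (red) and WT-aa (blue), with circles for replicate a, squares for replicate b and lines through the mean of the 2 arrays. All 6 are high at 15 min in both strains, and TMA10 separates the strains at 60 min, at -1.03 and -0.83 against 0.28 and -0.04.

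The comparison the study was built for is Hsf1-aa against WT-aa at the same time. At most 1 of the general stress genes passed at any time. Their median difference (Hsf1-aa minus WT-aa) was 0.05, 0.13, -0.06, -0.11 and 0.04 at 0, 15, 30, 60 and 90 min, and the genes that passed numbered 0, 0, 0, 1 and 0. Of all features 0.126%, 0.22%, 0.787%, 1.21% and 1.23% passed at the same times, and the counts of the 36 genes with an unadjusted p under 0.05 were 1, 15, 5, 10 and 7. For comparison, 11 measured chaperone targets of Hsf1 had medians of -0.09, -0.41, -0.76, -1.69 and -2.28, and 0, 2, 8, 10 and 11 of them passed as lower. The 95% intervals of the differences lay within 1.5-fold for 34, 32, 32, 28 and 33 of the 36 general stress genes. None of the 36 genes passed for a change of the strain difference from 0 to 30, 60 or 90 min (0.11%, 0.661% and 0.756% of all features passed), and 2, 6 and 0 had an unadjusted p under 0.05.

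At 15 min 27 of the 36 differences were above 0, where 49.5% of all features were. At 0 min, before rapamycin, 27 of the 36 already were, where 51.25% of all features were. Both arrays of Hsf1-aa lay above both of WT-aa at 15 min for 17 of the 36 genes, where 18.7% of all features did so. At 0 min this held for 12 genes, against 10.4% of all features. The median difference at 15 min was 0.175 within letter a and 0.06 within letter b, and 0.0437 without replicate a of WT-aa at 15 min. The 3 largest positive differences at 15 min were HXK1 (0.38 ± 0.13, adjusted p = 0.433), HSP12 (0.37 ± 0.12, adjusted p = 0.428) and DDR2. The 3 most negative were TMA10 (-0.24 ± 0.20), YGP1 (-0.20 ± 0.14) and AMS1 (-0.17 ± 0.06). At 0 min GLK1 (0.30 ± 0.15), SOL4 (0.23 ± 0.14) and GAD1 (0.23 ± 0.12) were the highest in Hsf1-aa, and YGP1, RTC3 (-0.19 ± 0.14) and PNC1 (-0.15 ± 0.15) the lowest. All of these had an adjusted p of 0.998 at 0 min. At 30 min TKL2 (0.39 ± 0.17), DDR2 (0.21 ± 0.09) and PRX1 (0.15 ± 0.07) were highest, and TMA10 (-0.73 ± 0.20, adjusted p = 0.252), XBP1 (-0.38 ± 0.15) and RTN2 (-0.29 ± 0.14) lowest. The 30 min count was 6 without replicate b of Hsf1-aa and 2 without replicate b of WT-aa, and the median was -0.136 within letter a and 0.038 within letter b.

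TMA10 was the 1 general stress gene to pass. It encodes a small protein that associates with ribosomes, has no settled function and is a paralog of STF2. Its level in Hsf1-aa was -0.11 and -0.26 at 0 min, 0.34 and 0.49 at 15 min, -0.53 and -0.06 at 30 min, -1.03 and -0.83 at 60 min and -0.55 and -0.60 at 90 min. In WT-aa it was 0.03 and -0.20, then 0.48 and 0.83, 0.75 and 0.12, 0.28 and -0.04, and 0.18 and 0.00 at the same times. The strains overlapped at 0 and 15 min and did not overlap at 30, 60 or 90 min. At 60 min TMA10 was lower in Hsf1-aa by -1.05 ± 0.20 (2.07-fold, adjusted p = 0.0235; lower calls made up 1.02% of all features). The difference was -0.73 at 30 min and -0.66 ± 0.20 at 90 min (adjusted p = 0.351), and its change from 0 to 60 min, -0.95, did not pass. The call at 60 min held under 23 of 28 alternatives. Without the Hsf1-aa replicates a and b of 60 min the adjusted p was 0.338 and 0.0788, without those of WT-aa 0.372 and 0.0592, and with external control centring 0.125. Without either array of Hsf1-aa at 30 min, or of WT-aa at 0 or 15 min, 2 of the 36 genes passed. The 4 arrays of 30 min left out together gave 4.

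RTC3 and HSP12 followed TMA10 in size at 60 min, at -0.60 ± 0.14 (adjusted p = 0.0602) and -0.46 ± 0.12 (adjusted p = 0.153). Both arrays of Hsf1-aa lay below both of WT-aa at 60 min for 17 of the 36 genes, where 20.1% of all features did so, and above for 1, where 17.8% did. TKL2 (0.30 ± 0.17), DCS2 (0.12 ± 0.08) and GLK1 (0.10 ± 0.15) had the largest positive differences at 60 min, with adjusted p-values of 0.341, 0.385 and 0.682. At 90 min YGP1 (-0.37 ± 0.14) and RTC3 (-0.35 ± 0.14) came after TMA10, and GLK1 (0.26 ± 0.15), PGM2 (0.23 ± 0.10) and STF2 (0.18 ± 0.10) were highest, with adjusted p-values of 0.707 to 1.

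**Figure D5:**
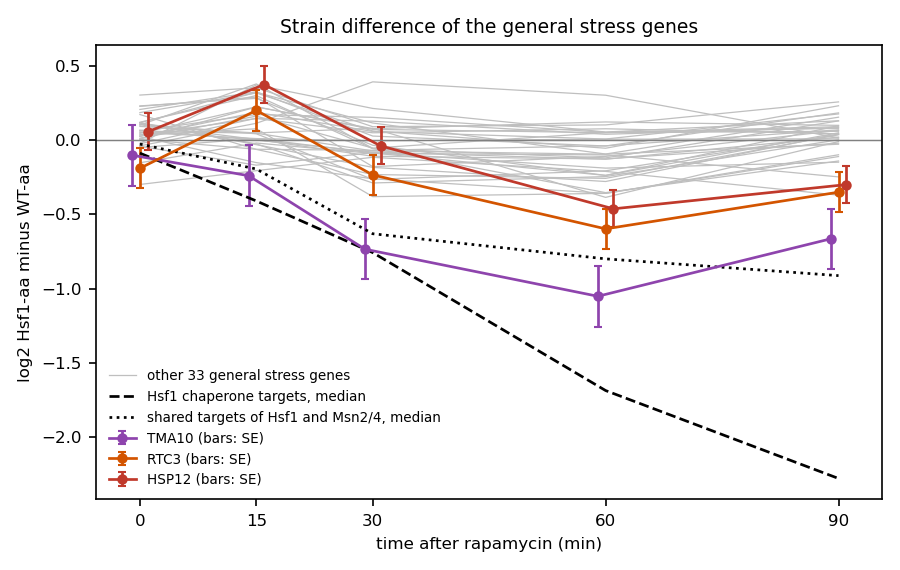
Strain difference (log2 Hsf1-aa minus WT-aa) of each general stress gene against time, with TMA10, RTC3 and HSP12 in colour (bars are SE) and the other 33 in grey, beside the medians of the Hsf1 chaperone targets (dashed) and of the genes shared by Hsf1 and Msn2/4 (dotted). The dashed line reaches -2.28 at 90 min, while the median of the 36 genes is 0.04 there, and TMA10 is at -1.05 at 60 min.

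The standard depletion gave a single array per strain, so the values carry no test. Both arrays used a reference of unlabelled RNA, and only their difference is read. The general stress genes were mostly higher in Hsf1-aa, with a median difference of 0.17 and 33 of 36 above 0, where 51.0% of all features were. Past 1.5-fold, 1 was higher (0.22% of all features) and 0 were lower (0.614%). HSP12 was that gene. It lay at -2.87 in Hsf1-aa against -3.55 in WT-aa, 0.68 apart (1.60-fold). DDR2 differed by 0.50, YGP1 by 0.435, AMS1 and HXK1 by 0.39 and SOL4 by 0.38, and PNC1 (-0.06), SDP1 (-0.03) and HOR7 (-0.02) were the 3 below 0. TMA10 differed by 0.15, against -0.73 at 30 min of the slow course. The level of the whole set depends on the scaling of these 2 arrays. Median centring gave a median of -0.023 with 6 genes past 1.5-fold, and external control centring a median of 0.77 with 21. With external control centring the median level of all features was also higher, at 2.05 in Hsf1-aa against 1.26 in WT-aa. The 0.77 is thus not particular to the general stress genes. Directions of the 6 and 21 genes, and shares of all features past 1.5-fold, are not given for these alternatives. For the Hsf1 chaperone targets the median was -1.70, and 11 of 11 were lower past 1.5-fold.

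Other genes around Msn2 and Msn4 were set beside the 36. Of 27 measured regulators, 2 were higher in Hsf1-aa at 15 min, where 0.645% of all features were. They were MSN4 itself, by 0.32 ± 0.07 (adjusted p = 0.0427), and CYR1, the adenylate cyclase that feeds protein kinase A, by 0.42 ± 0.06 (adjusted p = 0.00677). MSN4 changed by 0.30 ± 0.07 in WT-aa at 15 min (adjusted p = 0.121) and was higher at 90 min in both strains, by 0.33 ± 0.07 (adjusted p = 0.02 in Hsf1-aa and 0.0424 in WT-aa). Higher calls at 90 min made up 0.756% of all features in Hsf1-aa and 0.488% in WT-aa. MSN2 changed by 0.19 ± 0.07 and 0.09 ± 0.07 at 15 min and passed in none of the comparisons. BMH1, a 14-3-3 protein, was lower at 60 min in Hsf1-aa (-0.27 ± 0.06, adjusted p = 0.0491; lower calls made up 1.57% of all features). The calls of this list are given for the main fit only. The median regulator changed by -0.01 and -0.004 at 15 min, and none of the 27 passed in a strain difference at any time, with 0 to 7 at an unadjusted p under 0.05.

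The genes of trehalose and glycogen metabolism, storage sugars that Msn2 and Msn4 help to build, were set beside the 36 as a further list. At 15 min 5 of 14 were higher in Hsf1-aa, where 0.645% of all features were: GPH1 (glycogen phosphorylase) by 0.87 ± 0.17, TSL1 (trehalose synthase subunit) by 0.74 ± 0.13, GSY2 (glycogen synthase) by 0.50 ± 0.10, TPS2 (trehalose phosphatase) by 0.46 ± 0.10 and GLC3 (branching enzyme) by 0.43 ± 0.09. In WT-aa 0 passed and 8 had an unadjusted p under 0.05, and the medians were 0.30 and 0.23. From 15 to 60 min 10 fell in Hsf1-aa and 2 in WT-aa, where 5.32% and 0.362% of all features did, TSL1 by -1.30 ± 0.13 and -0.86 ± 0.13. None of the 14 passed in a strain difference at any time, with 1 to 6 at an unadjusted p under 0.05. Of 18 other measured Msn2 and Msn4 targets, CYC7, a cytochrome c isoform made at low oxygen, was higher at 15 min in Hsf1-aa (0.56 ± 0.05, adjusted p = 5.61e-04) and higher than in WT-aa (0.40 ± 0.05, adjusted p = 0.00515). Higher calls made up 0.645% of all features at 15 min in Hsf1-aa and 0.0315% in the strain difference at 15 min. These calls are given for the main fit only. ECM4, a glutathione transferase, was lower at 90 min in both strains, by -0.53 ± 0.08 and -0.46 ± 0.08 (adjusted p = 0.0012 and 0.0103). In all, 3 of the 18 were lower at 90 min in Hsf1-aa and 1 in WT-aa, where 1.94% and 0.488% of all features were. At 60 against 0 min 1 was lower in Hsf1-aa, where 1.57% of all features were. From 15 to 60 min 8 fell in Hsf1-aa and 1 in WT-aa, where 5.32% and 0.362% of all features did.

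For the 7 genes that take input from both Hsf1 and Msn2/4, the median difference was -0.03, -0.19, -0.63, -0.80 and -0.91 at the 5 times, and 0, 0, 4, 6 and 6 of them passed as lower in Hsf1-aa. Of all features 0.063%, 0.189%, 0.724%, 1.02% and 1.02% passed as lower at the same times. At 90 min HSP104 (the disaggregase) was lower by -2.51 ± 0.18, HSP42 (a small heat shock protein) by -2.44 ± 0.12, HSP78 (a mitochondrial relative of Hsp104) by -2.13 ± 0.12, SSE2 (an Hsp110 chaperone) by -0.91 ± 0.12, SSA4 (an inducible Hsp70) by -0.85 ± 0.08 and HSP26 by -0.71 ± 0.09. At 15 min none of the 7 was called in Hsf1-aa (2 at an unadjusted p under 0.05), while HSP26 was higher by 0.49 ± 0.09 in WT-aa (adjusted p = 0.0461). Higher calls made up 0.189% of all features there.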

How the data were processed

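Newly made yeast RNA was read on 22 two-colour spotted arrays: 20 of the slow course (10 groups of 2) and 2 of the standard depletion. The authors' scanner tables give, per the file headers, an intensity on a linear scale for each spot and dye, with local background in its own columns and nothing subtracted. A second deposited table holds log2 ratios of the authors. Its base was inferred from its slope against the scanner ratios (0.437 to 0.946, r = 0.631 to 0.971), its column medians lay between -0.00367 and 0.0219, and its normalisation is not stated in any source used here. It served as an alternative.

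Spot intensities (signal mean, background median) were corrected by normexp with offset 50 and loess-normalised within arrays, with control spots at weight 0. Log ratios were signed as sample over reference, and spots of a gene were averaged. Features were tested when at least 1 spot exceeded background by 2 background SD on at least 2 slow arrays (6353 of 6373). Symbols came from the platform annotation, and 58 were updated through RefSeq. limma 3.58.1 (R 4.3.3) fitted the 20 slow arrays with 10 groups and a dye term, which is the same factor as the replicate letter (9 residual degrees of freedom, 12.55 with the prior). Benjamini-Hochberg adjustment ran over all features, threshold 0.05, two-sided. SE and intervals come from this fit. On simulated data for Hsf1-aa, 15 against 0 min (6353 features), 98% of changes of size 1 and 71% of size 0.5 were recovered with 5 false calls. The 2 standard arrays were compared without a test. The number of arrays limits the precision.

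The 36 genes, the lists and the comparisons were chosen with earlier results of these data known. Of the 36 genes, those past the threshold in any comparison have their values in every group given. So do those with the 3 largest differences in each direction between strains and at 90 min. The others of the 36 are given by their range. Promoter sequences, planned for display, were not used here. Whether related genes (such as HXK1 and HXK2, or STF2 and TMA10) share signal on these probes was not tested. Alternatives were the background correction, median or external control centring, the filter, array weights, the dye term, the authors' log2 table and leaving out each array. Comparisons of 60 against 15 min and a fit without the 30 min arrays were added after seeing the data.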

Additional observations from a re-analysis of the deposited data

How the results depend on the processing

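None of the 44 gene calls changed sign under the alternatives run, while medians near 0 did, as given below. Calls were less steady, since each group had 2 arrays and a group left with 1 array was assumed to vary like the others. Without the dye term (no replicate block), 4 genes passed at 15 min in Hsf1-aa and 1 in WT-aa, 0 at 90 min in Hsf1-aa, and 1 in the F-test of WT-aa; the labels state independent cultures, and no pairing across strains was made. External control centring gave 0 genes at 15 and at 90 min in either strain, 0 for the strain difference at 60 min, and 2 (Hsf1-aa) and 0 (WT-aa) in the F-tests. Its medians were 0.203 and 0.000188 at 15 min, -0.0756 at 90 min in WT-aa, -0.0842 and 0.0647 for the strain difference at 0 and 90 min, and 0.770 in the standard arrays, with 21 genes past 1.5-fold. In the standard arrays it also put the median of all features higher in Hsf1-aa than in WT-aa, at 2.05 against 1.26. Median centring gave 5 genes at 15 min and 0 at 90 min in Hsf1-aa. Its medians were 0.0586 and 0.192 at 90 min in Hsf1-aa and WT-aa, 0.113 and 0.0112 for the strain difference at 0 and 90 min, and -0.0228 in the standard arrays, with 6 genes past 1.5-fold. The authors' log2 table gave 2 genes for the strain difference at 60 min, 2 at 90 min in Hsf1-aa and a median of 0.0964 at 90 min in WT-aa, where no background correction gave 0.0822. Array weights gave 19 genes at 15 min in WT-aa and 20 in its F-test. Without the 30 min arrays, 16 and 15 genes passed at 15 min in Hsf1-aa and WT-aa, 3 at 90 min in Hsf1-aa, 24 and 17 in the F-tests, 4 and 1 for the strain difference at 60 and 90 min, and 1 for its change from 0 to 60 min. At 60 against 0 min in Hsf1-aa, 2 genes passed with no background correction and with the authors' table, 0 with either other centring and 5 with array weights or without the 30 min arrays. At 30 against 0 min, HSP12 lost its call in both strains with external control centring and with array weights. The fall from 15 to 60 min gave 5 genes in Hsf1-aa and 0 in WT-aa with external control centring, and in WT-aa 1 with median centring, 0 without the dye term, 7 with array weights and 8 without the 30 min arrays. The causes of these shifts were not tested. Shares of all features are given for the main fit only, so no count under an alternative has its share beside it.

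Leaving out 1 array at a time gave these ranges of genes past the threshold: 0 to 13 at 15 min in Hsf1-aa and 0 to 4 in WT-aa, 0 to 2 and 0 to 1 at 90 min, 8 to 19 and 1 to 16 in the F-tests, and, for the strain difference, 0 to 6 at 30 min and 0 to 2 at 60 min. Its change from 0 to 30 min gave 0 to 4, and that from 15 to 60 min 0 to 2. At 30 against 0 min the counts were 0 to 1 in Hsf1-aa and 0 to 13 in WT-aa, and at 60 against 0 min 0 to 4 and 0. The fall from 15 to 60 min gave 11 to 25 in Hsf1-aa and 0 to 5 in WT-aa. Medians ranged from 0.0148 to 0.0881, 0.0437 to 0.155 and 0.0152 to 0.0502 for the strain difference at 0, 15 and 90 min, from -0.0642 to -0.00273 for its change from 0 to 90 min, from 0.262 to 0.336 at 15 min and -0.0205 to 0.0556 at 90 min in Hsf1-aa, and from 0.0317 to 0.106 at 90 min in WT-aa.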
